A study of Mus musculus with 3 samples.

Results

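Schlemm's canal (SC) endothelium was described here across all genes in single-cell RNA-seq of the mouse iridocorneal angle. The cells were those that carried the deposited cluster label SC among the cells kept by the authors, 124 of 26008. Of these, 46 of 9076 kept cells came from control replicate 1, 63 of 10160 from control replicate 2 and 15 of 6772 from the Angpt1ΔNC library. Control mice were Angpt1 flox/flox. Angpt1ΔNC mice were Angpt1 flox/flox;Wnt1Cre+, in which the Cre is active in the neural crest and its descendants and removes *Angpt1* there. Mice of both genotypes carried the floxed alleles, had been crossed for 2 generations onto the ICR albino background and were 6 weeks old. Each library was made from the eyes of 2 to 3 mice, described as male and female pooled, so a library is 1 pool. Because a single Angpt1ΔNC pool was sequenced, the spread between pools was seen only in the 2 controls, the Angpt1ΔNC pool was assumed to vary like them, and pool and genotype cannot be told apart. The p-values below draw most of their spread from other genes, since edgeR shares it across genes. Unless stated otherwise, 3 values in a row belong to control replicate 1, control replicate 2 and the Angpt1ΔNC library, in that order.

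The SC is a ring-shaped vessel at the limbus that collects aqueous humor from the trabecular meshwork and passes it to the episcleral veins, and it sets much of the resistance that determines intraocular pressure. It arises from limbal veins and takes on some lymphatic features, among them the transcription factor PROX1, while it keeps blood vascular features. ANGPT1, secreted by neural crest-derived cells next to the canal, activates the receptor TEK on its endothelium, and the SC endothelium itself does not come from the neural crest.

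SC cells held 551154, 679877 and 146753 UMIs (unique molecular identifiers, the counted transcripts), with median UMIs per cell of 8895, 6943 and 6505 and medians of 2835, 2332 and 2197 genes. They were compared with the blood endothelium that the authors labelled EC2, EC3 and EC4, which held 246, 263 and 182 cells and 1994495, 2378395 and 1545310 UMIs. *Angpt1* counted 2911, 3158 and 26 UMIs over all kept cells and 2, 1 and 0 in SC cells. *Xist* counted 0, 0 and 119 UMIs in SC cells and 0, 0 and 1098 in EC2 to EC4, although the labels describe pools of both sexes. The Y-linked *Ddx3y* counted 95, 108 and 6 UMIs in SC cells and 312, 463 and 132 in EC2 to EC4. Only the Angpt1ΔNC pool thus held both transcripts in these endothelial cells. Cells were not separated by sex, and sex and genotype cannot be told apart between the pools. Kept cells of control replicates 1 and 2 shared 25 barcodes, and the Angpt1ΔNC library shared 14 and 13 with them, while no SC barcode was shared. The median mitochondrial share of SC cells was 2.57, 3.24 and 4.33%. SC cells made up 15.6, 19.3 and 7.18% of the cells with an endothelial label. The study recognized SC in part by its fall in the Angpt1ΔNC library, so this share is not independent evidence of a loss.

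A level below is the number of UMIs of a gene per 10000 UMIs summed over the SC cells of a library. By this measure, all 4 genes that served as SC markers exceeded their EC2 to EC4 levels in every library. *Prox1*, the lymphatic transcription factor, was at 0.925, 0.927 and 0.613 in SC, against 0.0351, 0.0799 and 0.0129 in EC2 to EC4. *Nupr1*, which encodes a stress-induced chromatin protein, was at 53.2, 66.8 and 35 against 9.15, 6.03 and 1.95, and epithelial cells (the clusters the study named limbal and corneal epithelium, median 12359 to 21528 UMIs per cell) also held it in 35.1 to 61.1% of cells. SC cells held the pan-endothelial junction gene *Cdh5* in 97.8, 98.4 and 100.0% of cells. Of 12 pan-endothelial genes, 9 differed from EC2 to EC4 by less than 2-fold in at least 1 control, and *Egfl7*, *Esam* and *Eng* were lower. The lists of stroma, mural, epithelial, myeloid, pigment epithelium, Schwann, T cell and trabecular meshwork markers had summed levels of at most 1.15 in the SC cells of any library. *Ptprc*, *Csf1r*, *Notch3*, *Cspg4*, *Rpe65*, *Cd3e* and *Nell2* had no UMI in any SC cell. The lymphatic marker *Lyve1*, a hyaluronan receptor, also had none, whereas it was at 12.1 in the 16 cells labelled LEC (lymphatic endothelial cells; 3, 1 and 12 by library).

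SC stood apart from the pooled EC2 to EC4 cells in many genes. The chemokines *Ccl21a* and *Ccl2*, the matrix protein *Npnt* and the adhesion receptor *Selp* were higher, and 11 of 12 capillary genes were lower. Of 8985 genes with at least 10 UMIs over these cells in each control, 296 (3.29%) were at least 2-fold higher in SC in both controls and 424 (4.72%) at least 2-fold lower, after adding 0.1 to each level. The median log2 difference over all 8985 genes was 0.03, 0.02 and 0.03. The label was drawn from these same genes in these same cells, so the differences are descriptions and carry no test. The Angpt1ΔNC library was part of that clustering as well: of the 296 genes, 267 were higher and 178 at least 2-fold higher there, and of the 424 genes, 394 were lower and 261 at least 2-fold lower. Across the genes compared, the SC difference in one control correlated with that in the other with r = 0.837, with EC2 to EC4 cells and sequencing depth shared within each library. At the threshold, *Iigp1* fell just short of 2-fold higher with a less extreme log2 difference of 0.9987 and *Gm19705* just passed with 1.006. On the other side *Podxl* just missed with -0.9995, and *Scgb3a1* and *Sphkap* just passed, both with -1.002.

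**Figure D1:**
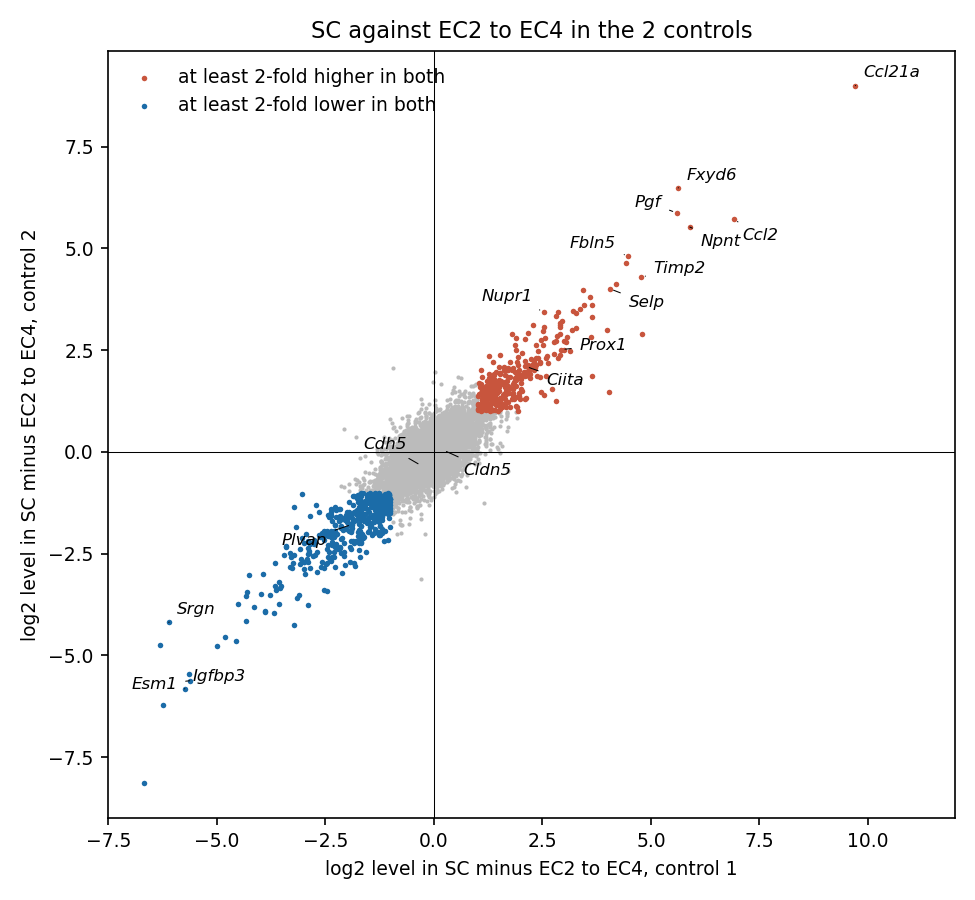
Each point is 1 of the 8985 genes, with its log2 difference between SC and EC2 to EC4 in control replicate 1 on the x axis and in control replicate 2 on the y axis. Named genes lie toward both ends, with *Ccl21a*, *Ccl2* and *Fxyd6* highest and *Igfbp3* among the lowest, and r across the genes was 0.837.

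**Figure D2:**
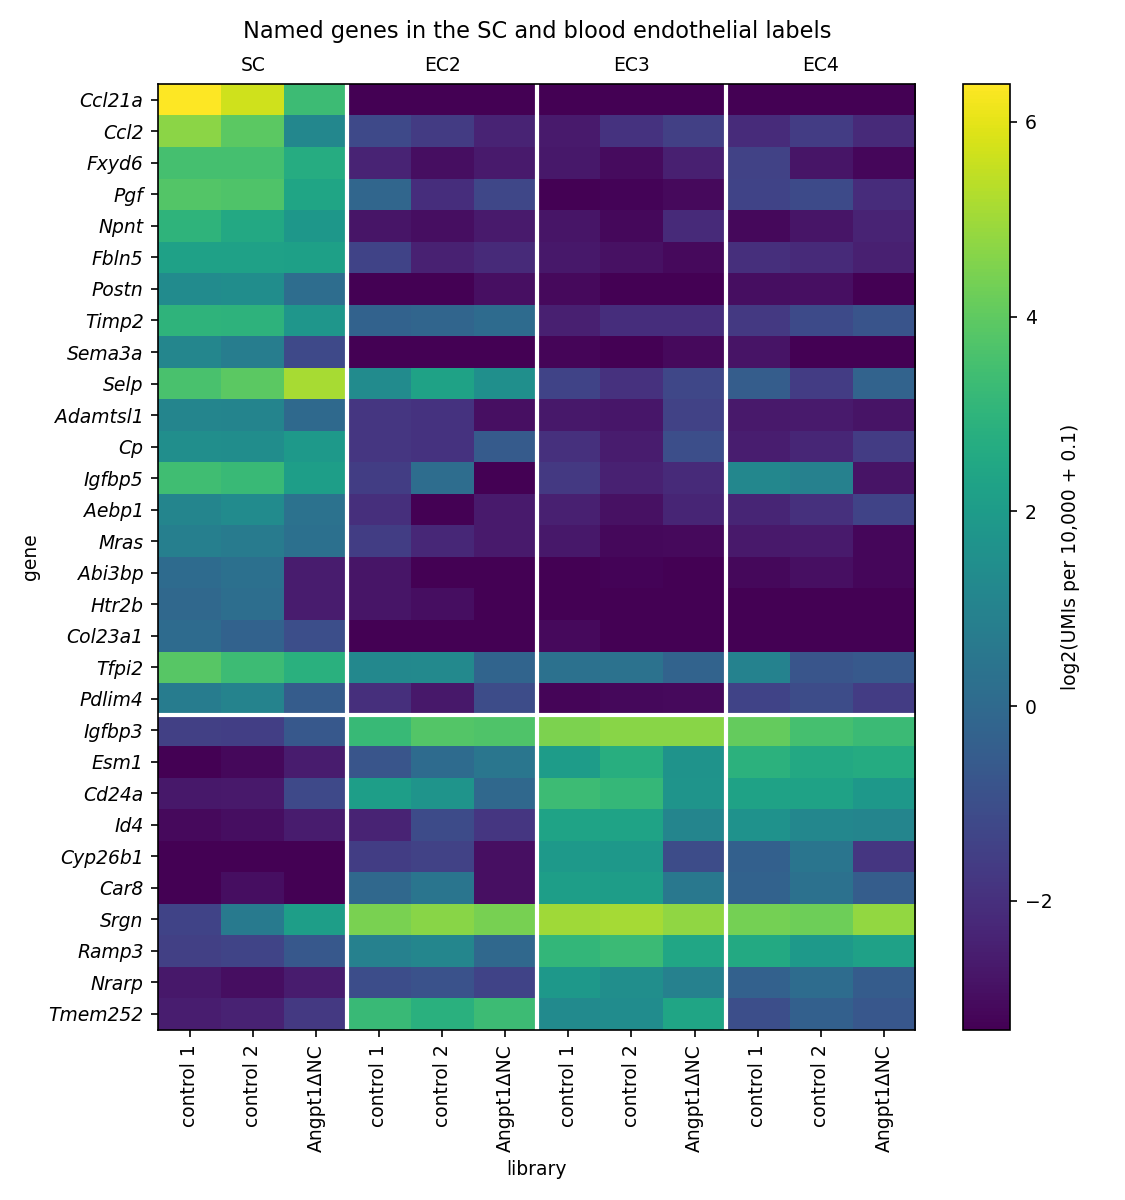
Heat map of the 20 genes that differed most upward and the 10 that differed most downward between SC and EC2 to EC4 (rows), in SC, EC2, EC3 and EC4 of each library (columns), as log2 of UMIs per 10000 plus 0.1. The upper 20 rows are brighter in the SC columns of both controls, and the lower 10 rows are darker in SC.

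Secreted signals led the 20 genes that differed most upward. *Ccl21a* encodes a chemokine that guides CCR7-positive immune cells into lymphatic vessels (chr4:42772860-42773993, reverse strand, GRCm38). Its level in SC was 83.7, 51.1 and 10.02, with no UMI in any EC2, EC3 or EC4 cell of any library. Against the floor of 3 UMIs that a count of 0 allows in each library, SC was at least 5563-, 4048- and 516-fold higher. The 15 Angpt1ΔNC cells included 2 with a *Ccl21a* UMI, and the share of SC cells holding it was 67.4, 38.1 and 13.3%, compared with at most 0.624% of epithelial cells. LEC cells had a level of 171, above each SC library. Near-identical copies such as *Ccl21b* and *Ccl21c* share reads with *Ccl21a*, so the copy that was transcribed is uncertain.

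*Ccl2*, a monocyte-attracting chemokine, was at 25.8, 15.3 and 2.18 in SC, against 0.115, 0.193 and 0.162 in EC2 to EC4, or 6.91, 5.71 and 3.12 on the log2 scale. It was held by 56.5, 39.7 and 26.7% of SC cells, and by 10.6 to 21.5% of epithelial cells. *Pgf*, a ligand of the receptor FLT1, was at 13.7, 12.9 and 5.11 against 0.186, 0.122 and 0.136. *Sema3a*, a secreted guidance molecule that binds neuropilins, was at 2.1, 1.63 and 0.341, with log2 differences of 4.20, 4.11 and 2.05. All of these ligands had their lowest SC level in the Angpt1ΔNC library.

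Matrix proteins and inhibitors of matrix turnover formed the next group. *Npnt* (nephronectin), a basement membrane ligand of integrin α8β1 (chr3:132881745-132950291, reverse strand), was at 7.95, 5.66 and 3.41 in SC, against 0.0351, 0.0252 and 0.0971 in EC2 to EC4, and 69.6, 55.6 and 53.3% of SC cells held it. No UMI of *Npnt* was counted in the 16 LEC cells, and 1.39 to 6.04% of epithelial cells held one. The elastic fiber protein *Fbln5* was at 4.59, 4.59 and 4.5, and the matricellular *Postn* (periostin) at 2.49, 2.59 and 1.02. *Timp2*, an inhibitor of matrix metalloproteinases, was at 7.86, 7.72 and 3.34 with log2 differences of 4.78, 4.29 and 2.60, and *Tfpi2*, an inhibitor of plasmin and other serine proteases, at 14.4, 9.96 and 7.15 against 1.51, 1.16 and 0.673. *Igfbp5*, which binds insulin-like growth factors and matrix, was at 10.7, 9.56 and 4.22. *Adamtsl1*, *Aebp1*, *Abi3bp* and *Col23a1*, all coding for matrix-associated or cell-surface collagen proteins, had levels between 0.721 and 2.47 in the control SC cells and log2 differences of 3.04 to 3.98 in the controls.

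The remaining genes of the 20 encode membrane, signaling and cytoskeletal proteins. *Selp* (P-selectin), which captures rolling leukocytes (chr1:164115264-164150026, forward strand), was at 12, 15.5 and 34.9 in SC, against 0.632, 0.866 and 1.02 in EC2 to EC4. It was the only one of the 20 apart from *Cp* that was highest in the Angpt1ΔNC library. Among the blood endothelial labels *Selp* was highest in EC2, at 2.46, 4.7 and 2.73, and at most 0.594% of epithelial cells held a UMI. *Fxyd6*, a regulator of the sodium-potassium ATPase, was at 11.5, 11.5 and 6.41 against 0.135, 0.0294 and 0.0453. *Htr2b*, a serotonin receptor, was at 0.871, 1.04 and 0.0681, *Mras*, a RAS-related GTPase, at 1.71, 1.53 and 1.09, and *Pdlim4*, an actin-associated protein, at 1.6, 1.91 and 0.613. *Cp* (ceruloplasmin), a copper-carrying ferroxidase, was at 2.67, 2.6 and 3.68.

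SC had the highest level of all labels with at least 10 cells, 34 in each control, for 10 of the 20 genes in both controls: *Ccl21a*, *Pgf*, *Npnt*, *Sema3a*, *Selp*, *Adamtsl1*, *Cp*, *Mras*, *Htr2b* and *Tfpi2*. For the other 10, some label outside the blood endothelium was higher in at least 1 control. *Ccl2*, for example, ranked 8 and 11 in the controls, where the highest label had a level of 100.7 and 99.8. LEC had under 10 cells in each control and was left out of this ranking. Among the listed genes, *Prox1*, *Maf*, *Mmrn1*, *Lama4*, *Nrp2*, *F8*, *Slco2a1*, *Calcrl*, *Sox18*, *Bcl6b*, *Foxp1*, *Ecscr*, *Asns* and *Iigp1* were also highest in SC in both controls.

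Promoter windows of these genes were read for letters like those bound by factors of the kinds present in SC. RefSeq promoters (250 bases before to 50 after the start, GRCm38.p6) were found for 17 of the 20 genes, 24 windows in all, of which *Npnt*, *Selp* and *Htr2b* are shown as examples among the genes for which SC ranked first. *Tfpi2* and *Cp*, which also ranked first, carry matches as well. The windows of *Ccl21a*, *Pgf*, *Sema3a* and *Mras*, for which SC ranked first too, carry none, nor does the other *Npnt* window. AGGTCA, the half-site of nuclear receptors such as NR2F2, was present on either strand in 8 of the 24 windows (33.3%), from 7 genes, and in 16.3% of all 32851 windows. TGANTCA, a loose form of the AP-1 site, was present in 4 of 24 (16.7%) and 7.81% of all. All 4 matches were TGATTCA or TGAATCA, and none had the middle C or G of the AP-1 consensus. TGCTGA, a MAF half-site, was present in 3 of 24 (12.5%), from 2 genes, and 19.5% of all, and the forkhead letters TGTTTAC in 0 of 24 and 3.65% of all. A pair of overlapping *Tfpi2* windows holds the same AGGTCA and TGCTGA matches, each counted in both windows. Capitals mark the matches below, in which the pair in *Htr2b* overlaps. A match is a description of the letters only.
Npnt, chr3:132950242-132950541, reverse strand: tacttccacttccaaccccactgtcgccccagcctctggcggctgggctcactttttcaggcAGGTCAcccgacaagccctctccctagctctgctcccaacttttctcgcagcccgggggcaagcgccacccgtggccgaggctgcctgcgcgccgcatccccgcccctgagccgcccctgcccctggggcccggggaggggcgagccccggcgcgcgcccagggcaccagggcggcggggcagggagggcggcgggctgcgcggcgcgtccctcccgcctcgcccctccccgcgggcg
Selp, chr1:164115014-164115313, forward strand: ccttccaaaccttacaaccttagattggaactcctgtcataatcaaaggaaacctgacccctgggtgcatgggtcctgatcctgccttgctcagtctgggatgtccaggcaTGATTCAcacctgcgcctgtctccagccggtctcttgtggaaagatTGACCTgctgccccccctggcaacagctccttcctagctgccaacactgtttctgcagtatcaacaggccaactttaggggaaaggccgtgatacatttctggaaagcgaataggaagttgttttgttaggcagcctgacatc
Htr2b, chr1:86111931-86112230, reverse strand: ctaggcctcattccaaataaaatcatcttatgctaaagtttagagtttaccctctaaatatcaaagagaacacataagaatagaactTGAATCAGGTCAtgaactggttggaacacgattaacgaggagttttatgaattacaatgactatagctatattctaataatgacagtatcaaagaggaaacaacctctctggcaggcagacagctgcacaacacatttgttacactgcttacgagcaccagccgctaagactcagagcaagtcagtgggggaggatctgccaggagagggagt

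The 10 genes that differed most downward included *Igfbp3*, *Esm1* and *Car8* of the capillary list. *Igfbp3*, a carrier of insulin-like growth factors, was at 0.254, 0.25 and 0.545 in SC, against 18.9, 19.7 and 15.5 in EC2 to EC4. *Esm1* (endocan), a tip cell gene, was at 0, 0.0147 and 0.0681 against 4.84, 5.55 and 4.15, and *Ramp3*, a subunit of adrenomedullin receptors, at 0.254, 0.294 and 0.545 against 6.96, 6.9 and 4.06. *Cyp26b1*, which degrades retinoic acid, had no UMI in SC of either control, and EC2 to EC4 exceeded the floor by at least 41.6- and 54.8-fold there. *Cd24a*, a surface sialoglycoprotein, was at 0.0544, 0.0588 and 0.341 against 7.57, 6.88 and 2.85. *Srgn* (serglycin), a secretory granule proteoglycan, was at 0.29, 1.46 and 4.22 against 26.8, 28.2 and 26.2. *Id4*, *Car8*, *Nrarp* and *Tmem252* completed the group. All 10 were also lower in the SC cells of the Angpt1ΔNC library.

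Vessel-type lists, compared against the background of 3.29% of genes higher and 4.72% lower, differed in direction. Of 12 capillary genes, none were higher and 11 lower, with median log2 differences of -2.18, -1.99 and -2.11. Among them *Plvap*, which forms the diaphragms of fenestrae and caveolae, was at 7.97, 8.46 and 6.27 in SC, against 29.5, 29.2 and 15.8 in EC2 to EC4. EC3, which the study proposes to be choriocapillaris from its high *Kdr*, *Plvap* and *Ihh*, held 55.01 and 57.8% of the EC2 to EC4 UMIs in the controls. These 3 genes are on the capillary list, so this contrast is weighted toward that label. Of 10 lymphatic genes compared, 8 were higher (*Prox1*, *Ccl21a*, *Itga9*, *Mmrn1*, *Nts*, *Fgl2*, *Sema3d* and *Maf*) and none lower, with medians of 2.31, 1.99 and 2.39. Several of these served to define or describe SC in the study. Of 11 arterial genes, 6 were lower, including *Sox17*, *Gja4* and *Dll4*, and *Jag1*, a Notch ligand, and *Ltbp4*, which anchors latent TGF-beta in matrix, were higher. Of 10 venous and leukocyte adhesion genes, *Selp*, *Vcam1*, *Nr2f2* and *Lrg1* were higher and *Icam1* and *Jam2* lower, and *Nr2f2*, the transcription factor of venous identity, was at 0.689, 1.06 and 1.43 against 0.115, 0.0883 and 0.0647.

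Transcription factors split in both directions: 5 of 29 were higher (among them *Prox1*, *Nr2f2*, *Maf* and *Nfatc1*) and 4 lower (*Foxc1*, *Sox17*, *Gata2* and *Epas1*). *Maf*, a basic leucine zipper factor that takes part in lymphatic development, was at 3.37, 4.06 and 0.613 in SC against 0.361, 0.458 and 0.252. *Nfatc1*, which acts in lymphatic valve formation, was at 0.49, 0.677 and 1.02 against 0.14, 0.122 and 0.162. *Foxc1*, whose human counterpart is mutated in anterior segment dysgenesis, was at 0.29, 0.53 and 0.409 against 0.963, 1.3 and 1.15.

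Genes of growth factor signaling and vascular tone were more often lower than higher. Of 21 TGF-beta and BMP genes, 10 were lower, among them *Bmp6*, *Smad6* and *Id2*, whereas *Bmp4*, *Fstl1* and *Gdf15* were higher. *Smad6*, an inhibitor of BMP signaling, was at 0.218, 0.0735 and 0.818 in SC against 2.85, 3.2 and 2.03, and *Bmp4* was at 1.56, 1.87 and 3.07 against 0.687, 0.626 and 1.28. Of 18 vasoactive genes, 8 were lower, including endothelin 1 (*Edn1*, 0.163, 0.147 and 0.886 against 3.18, 2.49 and 5.82). *Calcrl*, the receptor for adrenomedullin and CGRP, was higher at 3.14, 2.6 and 1.16 against 0.857, 1.17 and 0.569, as were *Ptgs2* and *Ptgis* of prostaglandin synthesis. *Ptgs2* was uneven between pools, at 2.1, 0.515 and 0.545, and held by 15.2, 15.9 and 6.67% of SC cells. Of the TEK pathway, 5 of 10 genes were compared and *Angpt2*, a context-dependent TEK ligand, was lower at 0.345, 0.427 and 1.02 against 1.43, 1.58 and 1.59.

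Among 20 channels and transporters, *Fxyd6*, *Slco2a1* and *Slco3a1* were higher and 7 lower. *Slco2a1*, a prostaglandin transporter, was at 3.47, 2.87 and 3.88 in SC against 0.812, 0.635 and 0.718, and the water channel *Aqp1* was at 0.508, 0.927 and 2.66 against 4.43, 5.15 and 5.31. Of 17 mechanosensing and caveola genes, *Trpv4*, a calcium channel that responds to stretch and osmotic swelling, and *Cavin3* were higher, and *Trpv4* was at 0.236, 0.176 and 0.204 against 0.0251, 0.0252 and 0.00647. The stretch-activated channel *Piezo1* was at 0.962, 1.04 and 1.23 against 0.998, 1.28 and 1.26, less than 2-fold apart in every library. In the list of 22 cytoskeletal genes, *Vim* (vimentin, 27.2, 33.2 and 43 against 6.6, 6.04 and 5.7) and *Actn1* were higher, and *Actg1*, *Tagln2* and *Cnn2* lower.

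Matrix genes were divided, with 6 of 25 higher (*Lama4*, *Postn*, *Npnt*, *Fbln5*, *Bgn* and *Fbn1*) and 3 lower. Of 18 proteases and inhibitors, 5 were higher, and *Timp2*, an inhibitor of metalloproteinases, was among them. Coagulation genes included *F8* (factor VIII) at 0.671, 1.12 and 0.341 against 0.12, 0.0631 and 0.0453, and the annexin pair *Anxa2* and *S100a10*, with *Tfpi2* making 4 of 13 higher. Of 20 chemokines and cytokines, 7 were higher, among them *Ccl7* (1.76, 1.68 and 0.136) and *Cxcl10* (18.9, 10.7 and 1.16 against 5.96, 4.94 and 6.7). Of 14 antigen presentation genes, the class II genes *H2-Aa*, *H2-Ab1*, *Cd74* and *Ciita* were higher, at low levels, and none were lower. *Cd74* was at 1.14, 1.26 and 0.341 against 0.331, 0.164 and 0.285, and 32.6, 41.3 and 20% of SC cells held a UMI, compared with 7.49 to 16.3% of epithelial cells. None of the 20 interferon-stimulated genes and 1 of 21 stress genes, *Nupr1* itself, passed the 2-fold limit.

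The remaining lists had the following counts. Junction genes numbered 1 higher (*Cdh13*) and 4 lower of 17, integrins 2 and 2 of 11, Notch genes 2 and 4 of 10, lipid and scavenger genes 2 and 6 of 11, and the VEGF family 1 (*Pgf*) and 3 of 9. The 14 immediate early genes, which rise during tissue dissociation, had 5 lower in SC (*Fos*, *Ier2*, *Nr4a1*, *Hspa1a* and *Btg2*) with medians of -1.05, -0.63 and -1.54. Hemoglobin genes were lower in SC, 4 of 4, but 5 cells of each library held 99.6, 99.5 and 98.9% of the hemoglobin UMIs of EC2 to EC4. Only 2 of 12 cell cycle genes reached the minimum count, and neither passed.

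SC cells differed among themselves in how many of the 20 genes they expressed. To set all cells to 1 depth, the expected number of the 20 genes with a UMI was computed for each cell if 2000 of its UMIs were drawn. The median was 8.96, 7.94 and 4.85 in SC and 0.642, 0.85 and 0.488 in EC2, and without this step the SC medians were 14, 12 and 7. In control replicate 2, 3 SC cells with under 2000 UMIs were left out. Cells below 5 of the 20 genes numbered 4 of 46 (8.70%, 95% interval 2.42 to 20.8), 14 of 60 (23.3%, 13.4 to 36.0) and 8 of 15 (53.3%, 26.6 to 78.7). These Clopper-Pearson intervals cover counting error only. The value of 5 was set after the cells were seen and divides a continuous range, in which 1, 8 and 4 cells lay between 4 and 6, so it defines no cell type. As a share of endothelial cells with at least 2000 UMIs, SC cells with 5 or more made up 15.2, 14.8 and 3.54% (intervals 11.2 to 20.01, 11.04 to 19.2 and 1.43 to 7.15), and those below 5 made up 1.45, 4.5 and 4.04%.

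**Figure D3:**
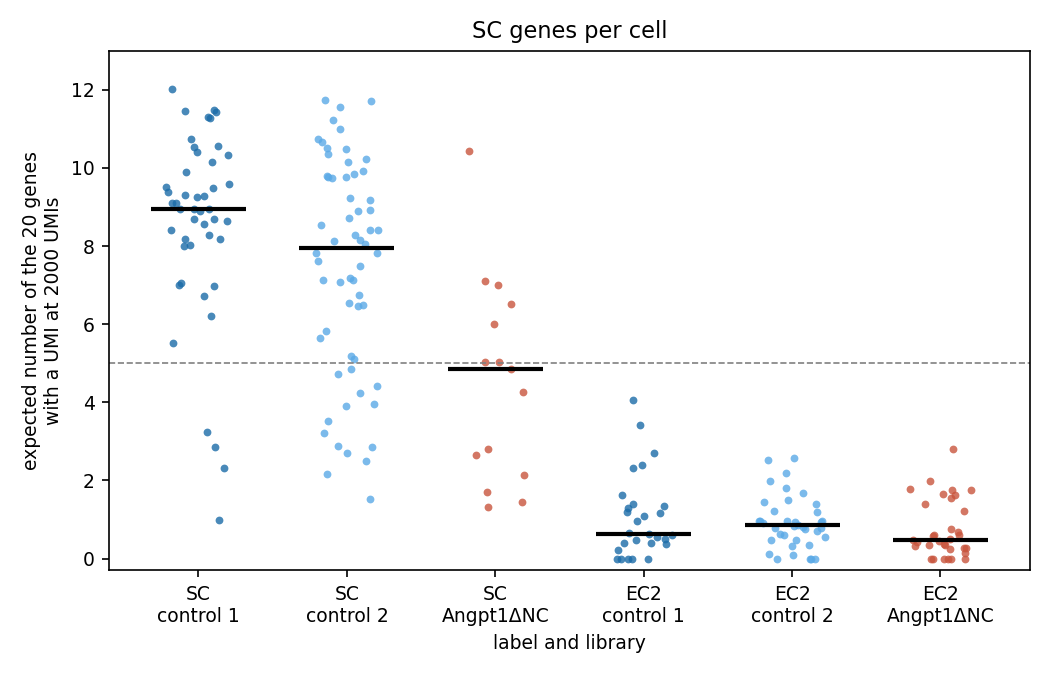
Expected number of the 20 genes with a UMI at 2000 UMIs (y axis), 1 point per cell, for SC and EC2 in each library, with the median as a black line and the value of 5 dashed. SC medians were 8.96, 7.94 and 4.85, and EC2 cells lay near the bottom of the scale in all libraries.

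Genes that were not among the 20 also differed between these ranges of SC cells. *Igfbp7*, a matrix-bound vascular protein, was at 4.85, 4.36 and 11.8 in cells with at least 5 and at 29, 31 and 33.1 in cells below 5. *Vwf* (von Willebrand factor) was at 0.0562, 0.19 and 0.901 against 1.74, 3.04 and 5.18, and *Ackr1*, the chemokine-binding receptor of venules, at 0.0187, 0.155 and 0 against 1.16, 3.45 and 7.59. In each library the cells below 5 were higher for these genes. *Flt1*, a VEGF receptor, was at 2.36, 2.83 and 2.93 against 8.12, 7.22 and 8.63, and *Srgn* at 0.131, 0.38 and 1.58 against 5.22, 7.85 and 8.28. The other direction was seen for *Cldn5*, the endothelial tight junction claudin, at 24.4, 31.7 and 13.5 against 16.8, 8.9 and 3.45. *Cdh5* was at 11.9, 11.8 and 11.8 against 16.2, 10.8 and 10.9, and both ranges held this endothelial gene. *Selp*, which is 1 of the 20, was higher in the cells below 5, at 54.5, 54.3 and 65.4 against 10.6, 9.16 and 15.

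**Figure D4:**
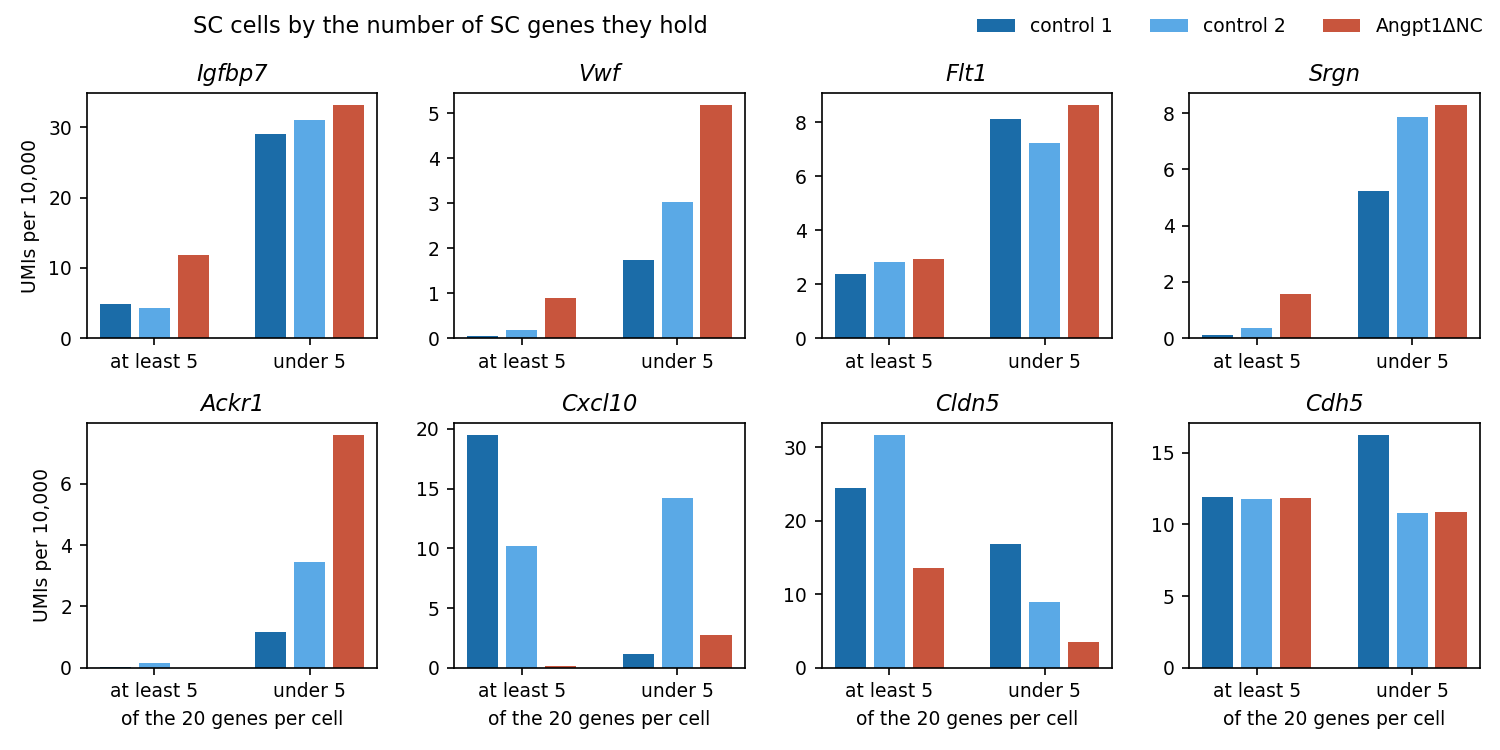
Levels (UMIs per 10000) of 8 genes in SC cells with at least 5 and with under 5 expected genes of the 20, 1 bar per library. *Igfbp7*, *Vwf*, *Flt1*, *Srgn* and *Ackr1* were higher in the cells below 5 in all libraries, *Cldn5* was lower there, and *Cdh5* was at 11.9, 11.8 and 11.8 against 16.2, 10.8 and 10.9.

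Correlations across single SC cells were computed within each control for 3891 genes, over 46 and 63 cells, with no test because cells of a pool are not replicates. They share depth: Spearman's rho with the total UMIs of the cell was 0.42 and 0.55 for *Npnt*, 0.16 and 0.34 for *Ccl21a* and 0.04 and -0.04 for *Selp*, so values after thinning to 2000 UMIs are given beside the rest. *Selp* and *Npnt* had a negative rho of -0.23, -0.39 and -0.42 (after thinning -0.15, -0.27 and -0.47) in the 3 libraries. This pair fell short of 0.3 in control replicate 1, and after thinning in both controls. In the controls, 24 of 46 and 28 of 63 SC cells held both genes. Genes that ran with *Selp* in both controls were *Tgm2*, a transglutaminase, at 0.42 and 0.46 (0.31 and 0.35 after thinning), *Rnd1* at 0.42 and 0.51 (0.52 and 0.36 after thinning), *Sele* (E-selectin) at 0.36 and 0.38 (0.34 and 0.39 after thinning) and *Ier3* at 0.33 and 0.55 (0.35 and 0.54 after thinning). *Ccl21a* ran with *Cldn5* at 0.35 and 0.52 (0.39 and 0.45 after thinning) and against *Flt1* at -0.48 and -0.45 (-0.46 and -0.22 after thinning). Past 0.3 in both controls, *Npnt* had 172 positive genes before thinning and 2 after.

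Within SC, the chemokines *Ccl21a*, *Ccl2*, *Cxcl10* and *Ccl7* were lower in the Angpt1ΔNC pool than in the controls, and the venous genes *Selp*, *Vwf*, *Ackr1* and *Jam2* were higher. Of 6397 genes tested with edgeR's quasi-likelihood test on summed counts, 194 (3.03%) passed a Benjamini-Hochberg adjusted p of 0.05, with 116 (1.81%) higher and 78 (1.22%) lower in Angpt1ΔNC, and the median log2 difference over all genes was -0.04. This test had 1 residual degree of freedom against a median of 24.3 prior degrees of freedom taken from all genes, and compares 15 Angpt1ΔNC cells with 46 and 63 control cells. DESeq2 called 26 genes in place of 194, and SC cells of at least 3000 UMIs, a choice made after seeing the data, gave 42. In the Angpt1ΔNC pool 53.3% of the SC cells fell below 5 of the 20 genes, against 8.70 and 23.3% in the controls. The 20 genes were picked as high in these control cells, and a fall of those genes alone moves cells below 5. The split therefore cannot show a separate change in the makeup of the SC cells. Levels within the cells of at least 5 are given beside the leading results as a description. Signs of RNA makeup moved too: of 79 ribosomal protein genes 21 rose and none fell, with a median log2 difference of 0.50, and of 13 mitochondrial genes 3 rose (*mt-Nd3*, *mt-Atp6* and *mt-Co3*) and none fell, with a median of 0.55. In EC2 to EC4, 15 of the 79 ribosomal protein genes rose and none fell, with a median of 0.28. Of the 13 mitochondrial genes, 1 rose there and none fell, with a median of 0.11. The part of these signs of RNA makeup in each difference was not tested.

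Of the chemokines tested, 4 fell and *Cxcl9* rose in Angpt1ΔNC SC cells by the edgeR test with Benjamini-Hochberg adjustment. *Ccl21a* went from 83.7 and 51.1 in the controls to 10.0 (log2 difference -2.64, SE 0.27, adjusted p = 4.0e-07), and *Ccl2* from 25.8 and 15.3 to 2.18 (log2 difference -3.13, SE 0.33, adjusted p = 6.7e-07). *Cxcl10*, an interferon-induced chemokine, was at 18.9, 10.7 and 1.16 (log2 difference -3.57, SE 0.38, adjusted p = 6.8e-07). In cells with at least 5 of the 20 genes, the levels were 86.4, 58.3 and 16.6 for *Ccl21a* and 26.7, 17.9 and 3.49 for *Ccl2*. *Cxcl10* was at 19.52, 10.2 and 0.113 there, and the Angpt1ΔNC pool was lowest for each. *Ccl21a* and *Ccl2* are among the 20 genes that set this range, so their levels there are no separate check. In Angpt1ΔNC this range held 7 cells, with *Ccl21a* UMIs in 2 of them and 1 *Cxcl10* UMI in all. *Ccl7* and *Cd274* also fell, and *Cxcl9* (0.599, 0.368 and 1.98, log2 difference 2.15, SE 0.38, adjusted p = 0.0011) and *Il1r1* rose, making 5 lower and 2 higher of 19 chemokine and cytokine genes tested, with a median of -0.02.

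*Maf* fell as well (3.37, 4.06 and 0.613, log2 difference -2.50, SE 0.40, adjusted p = 4.3e-04 by edgeR with Benjamini-Hochberg adjustment). *Ccl21a*, *Ccl2*, *Cxcl10* and *Maf* passed under each of the 6 other settings with a test. Of the 20 genes highest in SC, 8 fell (*Ccl21a*, *Ccl2*, *Pgf*, *Timp2*, *Sema3a*, *Igfbp5*, *Abi3bp* and *Htr2b*), *Selp* rose (log2 difference 1.44, SE 0.20, adjusted p = 8.4e-05) and 11 did not pass, with a median of -1.10. These 20 were picked as high in the same control cells, so their fall is not independent evidence. DESeq2 called 4 of them (*Ccl21a*, *Ccl2*, *Pgf* and *Selp*), and cells of at least 3000 UMIs left 3.

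Some venous genes rose: of 11 venous and leukocyte adhesion genes tested, 4 were higher in Angpt1ΔNC (*Selp*, *Vwf*, *Ackr1* and *Jam2*) and none lower by edgeR, with a median of 0.79. *Vwf* was at 0.109, 0.588 and 2.59 (log2 difference 2.91, SE 0.47, adjusted p = 4.9e-04 with Benjamini-Hochberg adjustment), and *Ackr1* at 0.0544, 0.618 and 3.0 (log2 difference 3.15, SE 0.51, adjusted p = 4.9e-04). For both genes the Angpt1ΔNC pool lay above both controls, which themselves differed. These genes were high in the cells below 5, and in cells of at least 5 *Vwf* was at 0.0562, 0.19 and 0.901, *Ackr1* at 0.0187, 0.155 and 0 and *Selp* at 10.6, 9.16 and 15. Of the 4, *Selp* was the only one called by DESeq2 and in cells of at least 3000 UMIs, and it was not called without cells holding markers of other types. In EC2 to EC4, *Vwf* rose too (0.526, 0.635 and 1.4).

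*Xist*, the transcript of X inactivation, had the smallest adjusted p and lay at least 333-fold above the floor of 3 UMIs over both controls in Angpt1ΔNC SC. It was followed by *Gbp2b*, a guanylate-binding GTPase, at 0.0544, 0.0735 and 3.68 in SC, against 0.0902, 0.0505 and 2.78 in EC2 to EC4 (log2 difference 5.87, SE 0.41, adjusted p = 3.3e-10, edgeR with Benjamini-Hochberg adjustment), and at 0.0562, 0.0862 and 4.39 in SC cells of at least 5 of the 20 genes. *Crip1*, a LIM domain protein, was at 1.14, 2.03 and 14.7 in SC (log2 difference 3.29, SE 0.26, adjusted p = 4.0e-09) and 3.76, 4.92 and 4.24 in EC2 to EC4. It was also higher within the cells of at least 5, at 1.05, 1.83 and 10.02. *Bpgm*, which makes bisphosphoglycerate in red blood cells, was at 0.0726, 0.221 and 2.73 (log2 difference 4.23, SE 0.43, adjusted p = 4.0e-07). Within the cells of at least 5, *Bpgm* was at 0.0562, 0.0862 and 0.225, from 3, 5 and 2 UMIs, and in the cells below 5 it was at 0.58, 1.05 and 6.56, where 38 of its 40 Angpt1ΔNC UMIs lay. The pseudogene *Gm10260* had no UMI in Angpt1ΔNC SC, with the controls at least 27.2- and 31.3-fold above the floor of 3 UMIs in that library. *Rps18*, whose sequence it shares, rose (log2 difference 1.76, SE 0.19). In SC *Gm10260* was at 5.55, 6.4 and 0 and *Rps18* at 11, 11.1 and 34.9, and a split of reads between them was not tested. *Rpl29* also rose, and within the cells of at least 5 *Rps18* was at 10.9, 11 and 33.4 and *Rpl29* at 1.63, 2.14 and 7.54. These 3 genes moved the same way in EC2 to EC4. There *Gm10260* was at 3.93, 5.15 and 0, *Rps18* at 8.21, 8.46 and 18.5 and *Rpl29* at 1.33, 1.73 and 5.13.

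Other lists changed in few members. Of 17 TGF-beta and BMP genes, *Id1*, *Id2*, *Smad6* and *Smad7* rose and *Inhbb* and *Gdf15* fell (*Gdf15* was at 5.37, 1.46 and 0), but DESeq2 called 0 of them. *Smad7*, an inhibitor of TGF-beta signaling, was at 2.07, 1.93 and 4.77 (log2 difference 1.36, SE 0.26, adjusted p = 0.0028, edgeR with Benjamini-Hochberg adjustment). In the matrix list, *Mgp*, *Col4a2*, *Col15a1* and *Col18a1* rose of 24 tested and none fell, and *Mgp*, an inhibitor of calcification, was at 11.6, 12.5 and 25.9 (log2 difference 1.21, SE 0.20, adjusted p = 5.5e-04). DESeq2 called *Mgp* alone of this list. Without cells holding markers of other types, no gene of this list rose and *Postn* fell. Of 17 proteases and inhibitors, 4 fell, among them *Timp2*, *Timp3* and *Adamts4*. *Cldn5* was at 24.2, 28.5 and 9.54 (log2 difference -1.36, SE 0.23, adjusted p = 6.4e-04) and *Egfl7* at 9.16, 6.97 and 2.93, whereas *Esam* rose. Of the 5 TEK pathway genes tested none passed by edgeR, 1 had an unadjusted p under 0.05 and DESeq2 called 0, with *Tek* itself at 1.25, 1.13 and 1.23 and a median over the 5 of 0.15. Of 5 capillary and 6 arterial genes none passed by edgeR, 1 and 1 had an unadjusted p under 0.05, and DESeq2 called 0 and 0. *Igfbp7* rose (5.61, 8.09 and 20.2, log2 difference 1.66, SE 0.22, adjusted p = 4.7e-05).

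Whether the genotype difference in SC was unlike that in EC2 to EC4 was tested as an interaction, with the library as a block. Of 8799 genes, 341 (3.88%) passed by edgeR's quasi-likelihood test with Benjamini-Hochberg adjustment, 97 (1.1%) with a higher and 244 (2.77%) with a lower difference in SC, and the median over all genes was -0.12. Both cell classes came from the same pools, and SC contributed 15 Angpt1ΔNC cells. This test too had 1 residual degree of freedom, and edgeR took the spread of each gene from all genes together (infinite prior degrees of freedom), so the small p-values printed for single genes do not carry a spread of their own. The interferon-stimulated genes stood on the lower side: 14 of 20 had a lower difference in SC and 1, *Ifitm2*, a higher one, with a median of -1.50. The same 15 genes passed with RLE in place of TMM scaling factors and with no filter on low counts. In EC2 to EC4, where 6.39% of 9280 genes rose and 3.17% fell by the same test, 13 of the 20 rose and none fell. Within SC, *Ifit1*, *Isg15*, *Gbp2* and *Iigp1* fell and *Ifitm2* rose, a count that DESeq2 and cells of at least 3000 UMIs brought to 0. EC3 made up 48, 44.9 and 31.9% of the EC2 to EC4 cells and 55.01, 57.8 and 32.3% of their UMIs, so the pooled level mixes a change of makeup with a change within labels. The interaction against each label alone was therefore fitted after seeing the data: 7 of the 20 interferon-stimulated genes had a lower difference in SC against EC2, 12 against EC3 and 15 against EC4, where the shares of all genes with a lower difference were 1.32, 1.69 and 2.16%.

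*Ifit1*, an antiviral RNA-binding protein, was at 4.84, 2.29 and 1.02 in SC, against 2.34, 2.59 and 10.5 in EC2 to EC4 (interaction log2 -3.97, SE 0.31, adjusted p = 9.3e-33, edgeR with Benjamini-Hochberg adjustment). *Ifit3* was at 2.81, 2.37 and 1.29 in SC, against 1.33, 1.55 and 8.76 in EC2 to EC4 (log2 -3.75, SE 0.31, adjusted p = 1.0e-29). *Isg15*, a ubiquitin-like modifier, was at 25.8, 14.3 and 8.45 in SC, against 19.97, 17.8 and 34.1 in EC2 to EC4 (log2 -2.20, SE 0.18, adjusted p = 3.6e-31). In all of these genes the Angpt1ΔNC pool was the lowest of the 3 in SC and the highest of the 3 in EC2 to EC4. It was also lowest in SC cells of at least 5 of the 20 genes: *Ifit1* 4.74, 2.36 and 0.676, *Ifit3* 2.79, 2.45 and 0.901, *Isg15* 26.2, 15.4 and 6.53. In SC cells below 5 it was lowest for *Ifit1* (8.12, 1.88 and 1.55). There it was not lowest for *Ifit3* (3.48, 1.88 and 1.9) or *Isg15* (13.3, 8.27 and 11.4). *Cxcl10* had the smallest adjusted p (log2 -4.08, SE 0.28, adjusted p = 3.5e-44), with EC2 to EC4 levels of 5.96, 4.94 and 6.7. Of 14 class I and II antigen presentation genes, 8 had a lower difference in SC and none a higher one, and 2, 5 and 5 had a lower one against EC2, EC3 and EC4 alone. *Pcp4l1*, a small calmodulin-binding protein, was at 4.79, 3.84 and 1.23 in SC, against 0.551, 0.66 and 2.06 in EC2 to EC4 (log2 -3.72, SE 0.34, adjusted p = 1.3e-24), but against EC2 alone its interaction was -0.85 and did not pass. *Crip1* had the smallest adjusted p among genes with a higher difference (log2 3.099, SE 0.23, adjusted p = 1.5e-36).

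**Figure D5:**
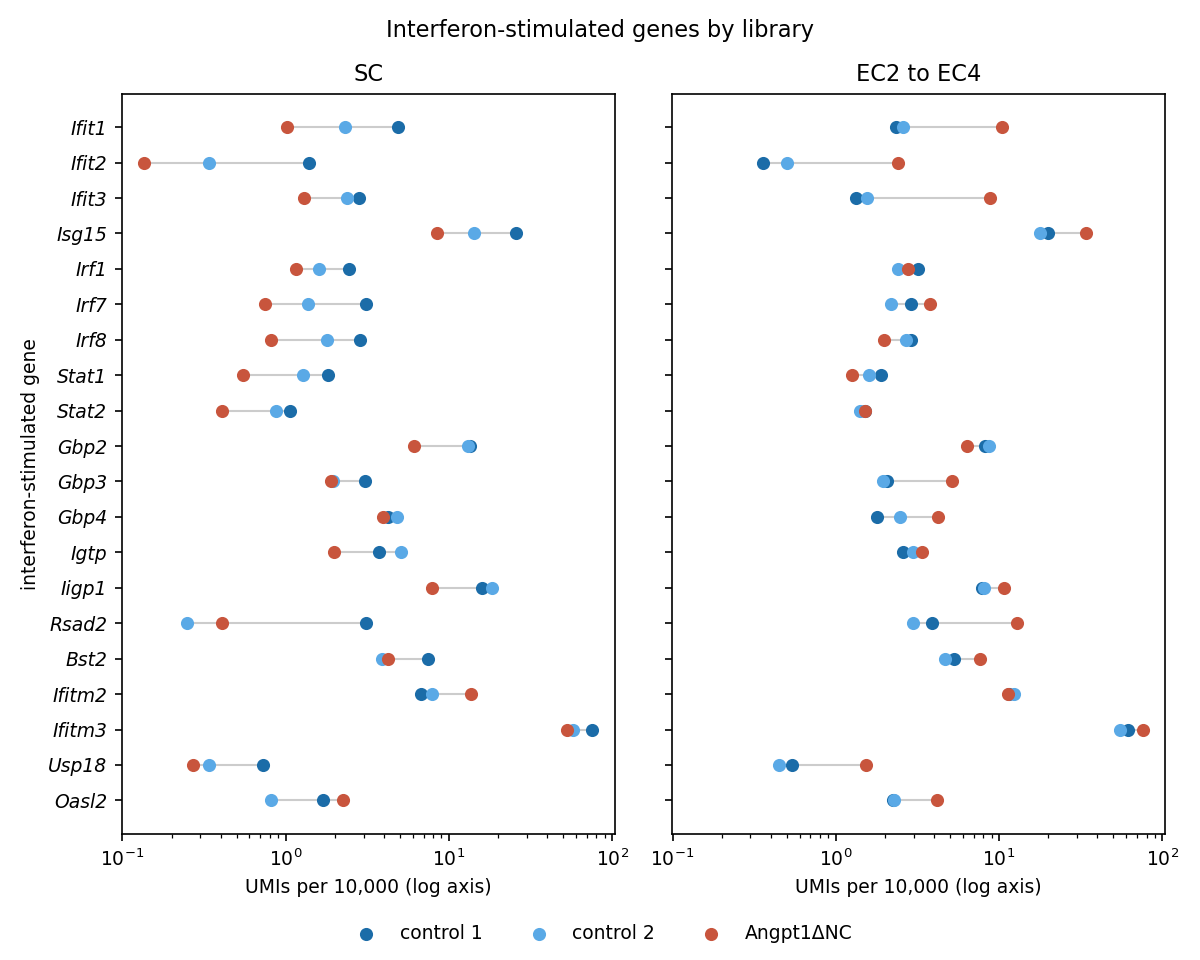
Levels of interferon-stimulated genes (UMIs per 10000, log axis), 1 dot per library, in SC and in EC2 to EC4. For *Ifit1*, *Ifit3* and *Isg15* the Angpt1ΔNC dot is the lowest in SC and the highest in EC2 to EC4.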

How the data were processed

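Limbal tissue was dissociated and sequenced on the 10x Genomics Chromium platform in 3 libraries. Per the labels and the study's methods, the authors aligned reads to mm10 and counted UMIs with Cell Ranger (2.1.1 in the submitters' processing notes, 3.0.2 in the matrix headers). They filtered cells, removed doublets with scDblFinder, integrated the libraries in Seurat 3.1.3 and clustered. The deposited matrices hold raw UMI counts of 32494 called cells. The deposited cell tables give each kept cell's cluster label; their gene columns hold integrated natural log values and were not used.

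Barcodes with the label SC were matched to the matrices within each genotype, and counts were summed per label and library. Sums were tested with edgeR 4.0.16 (glmQLFit, TMM, filterByExpr, R 4.3.3), checked on simulated data, with DESeq2 1.42.0 as an alternative. Levels and correlations used Python 3.11.15, numpy 2.4.6, pandas 2.3.3 and scipy 1.17.1. The 20 higher genes had the largest, and the 10 lower genes the smallest, log2 difference between SC and EC2 to EC4, ranked by the less extreme control, with a UMI in at least 25% of SC (higher) or EC2 to EC4 (lower) cells in both controls. Genotype and interaction genes were the 10 with the smallest adjusted p whose Angpt1ΔNC level lay outside both controls. Correlated genes had to pass 0.3 in both controls. The pair of *Selp* and *Npnt* did not and is given as values only. The members and lists were chosen with earlier results of these data known, and *Igfbp7* and the genes shown by range of SC cells were chosen after their values were seen. Some genes that met these rules are not reported here. Gene positions are from the GENCODE M21 annotation (GRCm38). Depth set the precision: Angpt1ΔNC SC cells held 146753 UMIs in all.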

Additional observations from a re-analysis of the deposited data

Results flagged for a closer look

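These results were picked out because the change from control to Angpt1ΔNC in SC differed from that in EC2 to EC4 by edgeR's quasi-likelihood test of the interaction with Benjamini-Hochberg adjustment. The interaction values of *Cxcl10* (-4.08), *Ifit1* (-3.97), *Ifit3* (-3.75), *Isg15* (-2.20), *Pcp4l1* (-3.72) and *Crip1* (3.099) are log2 differences of genes described above. *Cldn5* was at 24.2, 28.5 and 9.54 in SC, against 21, 27.5 and 25.8 in EC2 to EC4, with an interaction of -1.71. *Akap12*, a scaffold protein for kinase A, was at 9.47, 6.34 and 2.04 and 16.8, 16.7 and 20.3 (-2.35). *Actg1* (cytoplasmic actin) was at 21.6, 25 and 14 and 83.8, 85 and 118 (-1.37). *Gdf15*, a stress-induced cytokine, was at 5.37, 1.46 and 0 in SC, against 0.246, 0.0967 and 0.395 in EC2 to EC4. It had no UMI in Angpt1ΔNC SC cells, so its fitted value of -12.92 is no bound, and the control SC cells lay at least 26.3- and 7.12-fold above the floor of 3 UMIs in the Angpt1ΔNC library. Against EC2, EC3 and EC4 alone, *Pcp4l1* had interactions of -0.85, -4.72 and -3.26 and did not pass against EC2, while the other genes passed against each label with the same direction. Each of these rests on 1 Angpt1ΔNC pool with 15 SC cells.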

How the results depend on the processing

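Genes called both in the main test and in another setting kept their direction in each setting tried. Of 334 main interaction calls fitted against EC2 alone, 328 kept their direction, and against EC3 alone 335 of 340 did. Within SC, 116 higher genes became 11 with DESeq2, 71 with 15 cells per library, 62 without cells holding markers of other types and 31 with cells of at least 3000 UMIs (chosen after seeing the data). The 78 lower genes became 15, 38, 70 and 11 in the same order, and 145 with no filter on low counts; the cause was not tested. With 1 control left out no test was possible, and all 194 called genes kept their direction. The 296 and 424 genes higher and lower than EC2 to EC4 became 106 and 181 with 0.5 added in place of 0.1, and 186 higher with cells thinned to 2000 UMIs. Against EC2 alone 261 were lower, and with 1 control alone 409 to 443 were higher and 557 to 641 lower. Genes correlated past 0.3 in both controls fell on thinning from 49 to 6 positive and 5 to 2 negative with *Ccl21a*, from 172 to 2 positive with *Npnt*, and from 17 to 7 positive and 8 to 1 negative with *Selp*. Each control on its own gave 243 and 391 positive and 89 and 20 negative with *Ccl21a*, 525 and 787 and then 36 and 17 with *Npnt*, and 104 and 81 and then 104 and 184 with *Selp*. The 244 genes with a lower interaction became 75 against EC2 alone and 125 against EC3 alone (chosen after seeing the data), with fewer genes tested. Other interaction counts over all genes and the SC share stayed within 1.5 times. Interaction counts of single lists moved further. Against EC2 alone, interferon-stimulated genes with a lower difference went from 14 to 7 and antigen presentation genes from 8 to 2. No paired analysis was possible because the control and Angpt1ΔNC libraries share only replicate number 1. Depth limits the Angpt1ΔNC SC cells most, whose 146753 UMIs stand beside 551154 and 679877 in the controls.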

Other observations

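Barcodes outside the SC label also held several of the 20 genes. Among barcodes with at least 2000 UMIs and a *Cdh5* UMI, an expected 5 or more of the 20 genes were present in 7 of 67, 19 of 104 and 3 of 62 called cells that the authors did not keep, and in 12 of 63, 13 of 89 and 6 of 33 kept cells with labels outside the endothelium. None of 224, 247 and 170 such EC2 to EC4 cells reached 5, while 1 of 1, 1 of 1 and 8 of 9 LEC cells did. The not kept barcodes had median UMIs of 15544, 13556 and 20571, above the SC medians. *Npnt* was held by 3, 6 and 0 of these not kept barcodes.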
